A study of Drosophila melanogaster with 16 samples.

Results

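Motor neurons (MNs) of the fly thoracic ganglion were compared between young adult life and midlife, as the 5 pools taken 7 days after eclosion against the 5 pools taken 35 days after eclosion. These 10 arrays are all arrays labelled with either age, out of 16 in the series, and the other 6 come from 45-day-old flies. Every pool came from female flies of the w1118 background that carried D42-Gal4 driving GFP, kept at 25°C on a cycle of light and dark with no other treatment, so both ages share the driver, the reporter and the sort. The thoracic ganglion was dissected and dissociated, and GFP-positive cells were collected by fluorescence-activated cell sorting from 5 flies per pool. The RNA was amplified before it was labelled with Cy3 and hybridized, with 1 pool per array, to a custom Agilent array of long DNA features that was enriched for membrane channel and calcium-binding genes. The sorted cells are those in which D42 drives, and the labels give the pools separate numbers without naming a shared batch.

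Motor neurons carry the signal from the central nervous system to muscle. In the fly they release glutamate at the neuromuscular junction and receive mostly cholinergic input, and they are postmitotic cells that last through adult life. Transcripts of the synaptic vesicle machinery, of ion channels and of mitochondrial energy supply are known to be abundant in such cells, and turnover by the proteasome and autophagy maintains their proteins. The comparison asks which genes and functions differ by midlife.

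Values are log2 signal minus the 75th percentile of the same array, so that 0 is the 75th percentile itself and a difference of 1 is a 2-fold change. Features of a gene were averaged. A gene counted as past the threshold when its change exceeded 2-fold and limma, a linear model with variances moderated across genes, gave it a Benjamini-Hochberg adjusted p under 0.05. All 7-day-old arrays lay in row 2 of their slides and all 35-day-old arrays in row 1, so that age and slide row cannot be told apart within these 10 arrays. The 45-day-old arrays lay in both rows, 3 in each, and their values are given beside the genes below. The sort was checked against markers: all 13 measured markers of neurons in general and 6 of 7 measured markers of motor and glutamatergic neurons were well above background on all 10 arrays, and the other one, eve, was so on some of them. VGlut, the defining vesicular transporter of glutamatergic neurons, was not analysed here. The pools also held transcripts of other cell types, with 10 of 11 glia markers, 21 of 26 muscle markers, all 3 cholinergic and both GABAergic markers above background on all 10 arrays. The term MNs below therefore stands for the sorted pools as a whole.

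Of 12971 genes, 13 were past the threshold, or 0.100%, with 3 (0.0231%) higher and 10 (0.0771%) lower at 35 days. The higher genes were CG31601, Lsm10 and Ugt50B3. The lower genes were firl, ste24a, capt, Ptip, tous, CG5853, CG33777, CG4259, CG4962 and CG7203. Of these 10 genes, 9 were among the 6486 dimmer genes defined below, which as a whole had a median change of -0.80. Of the 3 higher genes, 1 was among the dimmer genes. When arrays were scaled by their median in place of the 75th percentile, 12 genes (0.0925%) were past the threshold, 4 higher and 8 lower. Of these 12, 11 were among the 13; dgt2 was gained, and capt (adjusted p = 0.067) and CG5853 (adjusted p = 0.078) were lost. In each of the 13 genes no value of one age overlapped the other, which for 5 arrays against 5 gives the smallest two-sided exact permutation p, 0.0079. Over all genes 117 were higher without overlap (0.902%) and 447 lower (3.45%), a balance that turned with median scaling, at 498 higher (3.84%) and 86 lower (0.663%). With normexp background correction, which compresses dim signals, 6 genes passed, 5 of them among the 13: CG31601, Lsm10, Ugt50B3, firl and CG7203. Lower signal from a pool may reflect fewer cells of a type or less RNA per cell, and these cannot be told apart.

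CG31601 had the smallest p-value. It read -8.90, -8.57, -9.04, -9.75 and -8.17 on the 7-day-old arrays and -2.38, -3.09, -2.01, -2.09 and -1.61 on the 35-day-old arrays. It was near background in young MNs, where 3 of 5 arrays had a feature well above background, and measured on all 5 arrays of midlife MNs. The rise was 6.65 (SE 0.36, limma adjusted p = 8.7e-05), and was 6.24 on slide 1 and 7.14 on slide 2. Both of its features passed the threshold. At 45 days it read -5.71 to -1.82 in row 1 and -4.03 to -0.69 in row 2, above every 7-day-old array in both rows.

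Lsm10 encodes a protein of the U7 snRNP, which with Lsm11 replaces a pair of the usual Sm proteins and processes the ends of replication-dependent histone transcripts. It read 0.11, -0.77, 0.03, 0.08 and -0.12 at 7 days and 1.40, 2.02, 1.93, 2.05 and 2.16 at 35 days. It was a bright gene at both ages, and every midlife array exceeded every young array. The rise was 2.04 (SE 0.24, limma adjusted p = 0.017), or 4.12-fold. It was 2.39 with median scaling (adjusted p = 0.01) and 2.11 within slide 1 and 2.10 within slide 2. The 45-day-old arrays read 0.33 to 2.09 in row 1 and 0.47 to 1.49 in row 2, again above the highest 7-day-old array.

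Ugt50B3 belongs to the UDP-glycosyltransferases, which conjugate small molecules to sugars. It went from -4.16, -3.07, -3.03, -2.64 and -1.19 to 0.95, -0.08, 0.87, 0.62 and 0.75. The young pools were more spread than the midlife pools, which lay near the 75th percentile of the array, and the ages did not overlap. The rise was 3.44 (SE 0.49, limma adjusted p = 0.041), or 10.9-fold. At 45 days the values were 1.08 to 1.40 in row 1 and -0.17 to 0.43 in row 2.

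The gene gained with median scaling, dgt2, encodes a subunit of augmin, the complex that recruits gamma-tubulin to existing microtubules. It read -0.48, -0.31, -0.62, -0.93 and -1.81 at 7 days and 0.92, 1.00, 1.22, 1.57 and 0.76 at 35 days. The ages did not overlap, and the difference was 1.92 (SE 0.31, limma adjusted p = 0.072) with the 75th percentile and 2.27 with median scaling (adjusted p = 0.02). All 45-day-old arrays lay above the young ones, at 1.14 to 1.95 in row 1 and 1.07 to 2.25 in row 2. HP4, which encodes a protein of heterochromatin that binds HP1, was picked out after its values were seen. It read 0.99, 1.04, 1.03, 0.62 and 0.98 in young and 2.62, 2.19, 2.00, 1.97 and 2.07 in midlife MNs, without overlap, a difference of 1.24 (SE 0.20, limma adjusted p = 0.071) that missed the threshold.

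**Figure D1:**
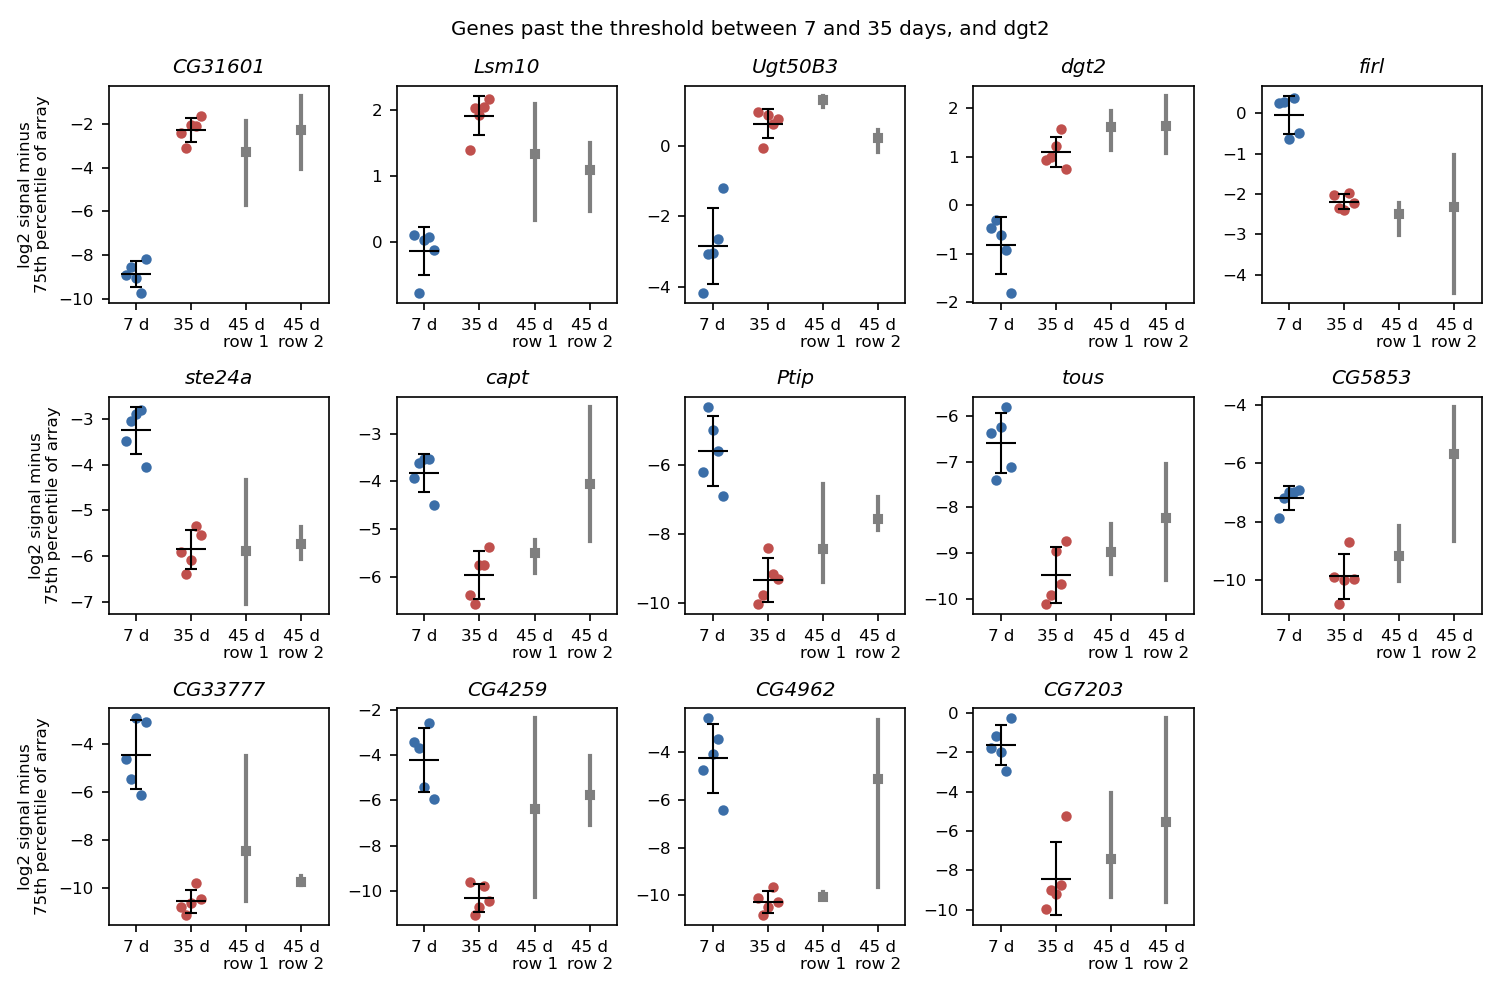
Log2 signal minus the 75th percentile of the array for the 13 genes past the threshold between 7 and 35 days and for dgt2. Points are single arrays, bars the mean and SD of 5 arrays, and gray lines the range and squares the mean of the 3 45-day-old arrays in each slide row; the 7-day-old and 35-day-old arrays do not overlap in any gene.

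Among the genes that fell, firl had a bright signal at both ages. It read 0.25, 0.29, -0.63, 0.37 and -0.49 at 7 days and -2.02, -2.35, -2.40, -1.98 and -2.23 at 35 days, with no overlap and little spread among the midlife pools. The fall was 2.15 (SE 0.26, limma adjusted p = 0.017). Both of its features were lower, at -2.63 and -1.68, and the first passed the threshold alone. The 45-day-old arrays were at -3.01 to -2.22 in row 1 and -4.45 to -1.03 in row 2, below all young arrays.

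ste24a, a protease of the Ste24 family that trims prenylated CAAX proteins, read -3.48, -3.03, -2.88, -2.79 and -4.04 in young and -5.92, -6.40, -6.08, -5.34 and -5.53 in midlife pools, a fall of 2.61 (SE 0.31, limma adjusted p = 0.017). Its features disagreed: one fell by 5.20 and was well above background on all 7-day-old and none of the 35-day-old arrays, while the other changed by -0.03. capt encodes the cyclase-associated protein that binds actin monomers. It read -3.93, -3.62, -3.53, -3.54 and -4.49 at 7 days and -6.39, -6.58, -5.75, -5.75 and -5.38 at 35 days and fell by 2.15 (SE 0.30, limma adjusted p = 0.041). Its 3 features changed by -3.22, -3.15 and -0.08. The first of these passed alone and was well above background on 2 young arrays and no midlife array, and the last was bright at both ages. In the 45-day-old arrays ste24a stayed at -6.06 to -5.36 in row 2, whereas capt spread from -5.25 to -2.43 in that row and reached the level of young MNs.

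Ptip, the fly homolog of PTIP and a partner of the Trr histone methyltransferase, read -6.21, -4.31, -4.99, -5.59 and -6.90 at 7 days and -10.03, -9.75, -8.40, -9.16 and -9.31 at 35 days, a fall of 3.73 (SE 0.51, limma adjusted p = 0.036). It had a feature well above background on all 5 young and 1 of 5 midlife arrays, and its features fell by 4.86 and 2.60. tous (toutatis), a bromodomain protein linked to the Brahma remodelling complex, read -6.37, -7.41, -6.24, -5.81 and -7.12 at 7 days and -10.12, -9.91, -8.96, -9.67 and -8.73 at 35 days, a fall of 2.89 (SE 0.39, limma adjusted p = 0.036). It too was measured on all 5 young and 1 of 5 midlife arrays. In both genes all midlife arrays lay below all young ones, and no feature of either passed alone. Each slide held both ages, and with the slide as a block 11 genes passed, without Ptip (adjusted p = 0.071), tous (adjusted p = 0.066) and capt (adjusted p = 0.071).

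CG33777, CG4259 and CG4962 were well above background on all 5 arrays of young MNs and on none of midlife MNs, so their change has a bound only. CG33777 read -4.64, -5.48, -2.92, -6.15 and -3.08 at 7 days and -10.80, -11.14, -10.64, -9.82 and -10.47 at 35 days. The 35-day-old signal was set to the lowest one measured well above background on each array where that was higher. With this processing the fall was at least 30.7-fold (limma adjusted p = 0.0097). That lowest signal is taken over all features of an array and is not a detection limit of the feature itself. The adjusted p given with a bound is that of the fit to the values as measured. CG4259 read -3.44, -3.67, -5.40, -2.61 and -5.95 at 7 days and -9.60, -11.07, -10.71, -9.79 and -10.44 at 35 days and fell at least 36.3-fold (limma adjusted p = 0.0097). CG4962 read -4.74, -2.58, -4.09, -3.48 and -6.42 at 7 days and -10.11, -10.83, -10.50, -9.64 and -10.30 at 35 days and fell at least 35.1-fold (limma adjusted p = 0.0097). The young pools were widely spread in each of the 3 genes, and no midlife pool reached them. With normexp their changes were -2.56, -2.56 and -2.42 (adjusted p = 0.25, 0.21 and 0.22), which did not pass. These changes are smaller than the bounds, so the bounds hold for the main processing only. At 45 days in row 2, CG33777 was low on all 3 arrays (-9.91 to -9.52), CG4259 ranged over -7.09 to -4.05 and CG4962 over -9.66 to -2.66.

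CG5853, a member of the ABC transporters of the G subfamily, also left the measured range. It read -7.88, -7.18, -6.98, -6.97 and -6.90 at 7 days and -9.88, -10.81, -10.00, -8.67 and -9.94 at 35 days. The mean of its features changed by -2.68 (limma adjusted p = 0.041). One feature fell by 5.14, and the other, well above background on none of the 10 arrays, changed by -0.22, so no bound is given for their mean. CG7203 read -1.79, -1.15, -1.97, -2.94 and -0.25 at 7 days against -9.99, -9.01, -9.20, -8.73 and -5.22 at 35 days, where 2 of 5 arrays were well above background. It fell by 6.81 (SE 0.87, limma adjusted p = 0.026), and 35-day-old replicate 5 stood above the other 4 and still below every young pool.

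Of the 13 genes, 7 had all 3 of the 45-day-old arrays of row 2, the row of the young arrays, beyond the range of the 7-day-old arrays on the side of the 35-day-old ones. These were CG31601, Lsm10, Ugt50B3, firl, ste24a, Ptip and CG33777. In CG5853 and CG4962, 1 of 3 such arrays was beyond it, and their 45-day-old means differed between rows by -3.49 and -4.92 (row 1 minus row 2). In row 1, the row of the 35-day-old arrays, all 3 of the 45-day-old arrays were beyond the 7-day-old range in 10 of the 13 genes. The 13 genes were chosen by values that also set this range, and the share over all genes was not computed. A fit of all 3 ages with the slide row as a term placed 0 genes past the threshold (limma), with 654 at an unadjusted p under 0.05. In that fit CG31601 changed by 7.65 (adjusted p = 0.21), Lsm10 by 1.81 (adjusted p = 0.85), dgt2 by 1.93 (adjusted p = 0.83) and ste24a by -2.47 (adjusted p = 0.85). CG33777 changed by -7.41, CG4259 by -5.45, CG7203 by -4.92, Ptip by -2.85, tous by -2.14 and firl by -1.99. Ugt50B3 changed by 2.39, CG4962 by -1.09 and capt by -0.71, against 3.44, -6.01 and -2.15 in the 10 arrays. CG5853 turned to 0.81 from -2.68. All of these had an adjusted p of 0.46 or more (limma), except CG31601.

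The median change of all genes was -0.34 with the 75th percentile and 0.01 with median scaling. Genes were split at the median of their mean level over the 10 arrays into 6485 brighter and 6486 dimmer genes. The dimmer genes had a median change of -0.80 and the brighter genes of -0.02. The median level of the dimmer genes lay between -9.13 and -8.69 on the 7-day-old arrays and between -10.38 and -9.38 on the 35-day-old arrays, without overlap. Among arrays of a single age, 45 days, it lay between -9.95 and -9.58 in row 1 and between -9.19 and -8.84 in row 2, again without overlap. The lowest signal well above background was at -8.88 to -8.44 on the 7-day-old arrays, -9.95 to -9.30 on 4 of the 35-day-old arrays and -8.58 on their replicate 4, which thus lay within the young range while the median of its dimmer genes, -9.38, did not. The part of the slide row in the change of dim genes was not tested. In the fit of all 3 ages with the row as a term, the median change of all genes was -0.05.

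**Figure D2:**
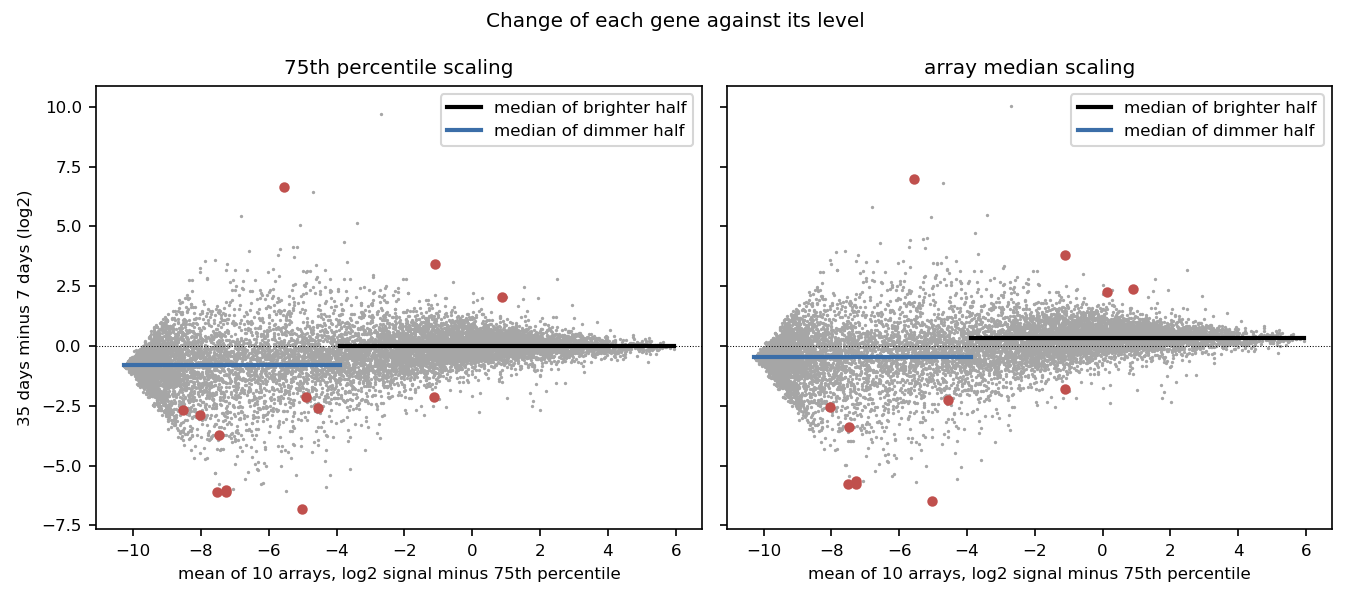
Change of each of the 12971 genes from 7 to 35 days (log2) against its mean level on the 10 arrays (log2 signal minus the 75th percentile), under both scalings. Red points are genes past the threshold, and horizontal lines the medians of the 6486 dimmer and 6485 brighter genes, -0.80 and -0.02 with the 75th percentile and -0.45 and 0.33 with median scaling.

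Counts of genes depended on a single midlife pool. Without 35-day-old replicate 4, 1147 genes (8.84%) were past the threshold, 65 higher and 1082 lower, and all 13 genes above were among them. Of the lower genes 1021 were dimmer genes. With median scaling the same omission gave 13 genes, 4 higher, and with quantile normalization 8. Other single arrays moved the count less, to 24 genes when 7-day-old replicate 5 was dropped, and to 6 and 5 when 35-day-old replicates 2 and 3 were, with 10 to 16 genes for each of the other 6 arrays. Leaving out single arrays with median scaling gave 5 to 17 genes, with 5 when 7-day-old replicate 4 was left out. CG31601 was past the threshold in 27 of 28 alternative settings, Lsm10 in 24 of 29, firl in 20 of 29, ste24a in 19 of 28, CG7203 in 16 of 28, Ugt50B3 in 12 of 29, tous in 11 of 28, Ptip in 10 of 28, CG5853 in 9 of 28 and capt in 7 of 28. CG33777, CG4259 and CG4962 were past it in 22 of 28 each. These settings are not independent of the main fit. Dropping the minimum fold could not remove a gene. The deposited table and kept outlier spots hold nearly the same values and returned all 13 genes. With the slide row as a term, 0 of the 13 passed.

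**Figure D3:**
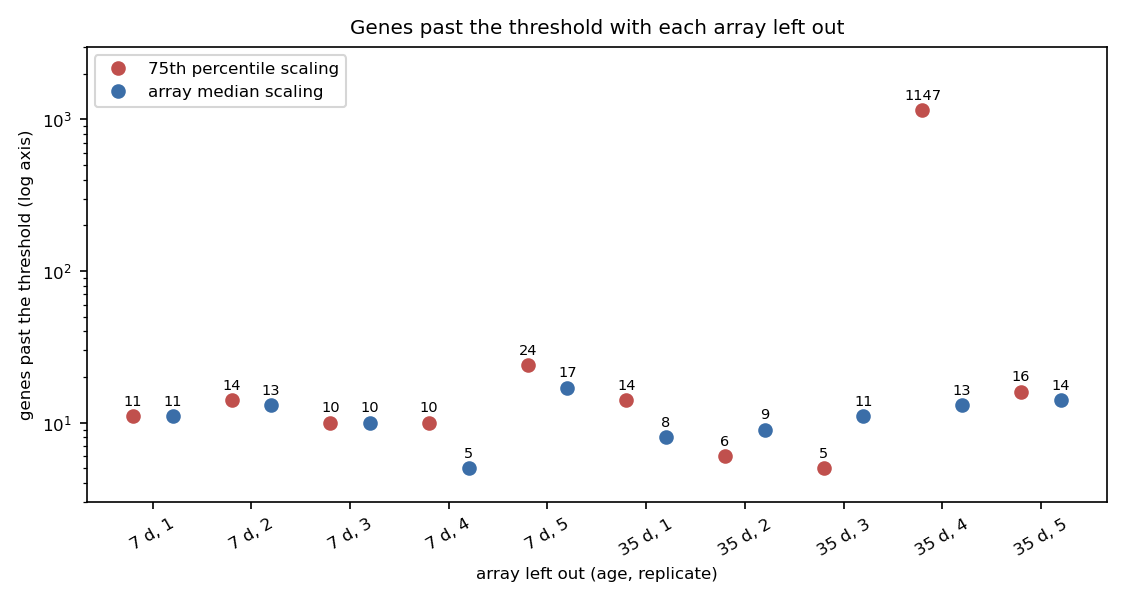
Number of genes past the threshold (log axis) when each of the 10 arrays, named by age and replicate, is left out, with 75th percentile scaling and with array median scaling. Omission of 35-day-old replicate 4 gives 1147 genes with the former and 13 with the latter.

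Genes with the smallest adjusted p in the fit without that pool follow, with their values in all pools. Equal adjusted p occurred in that fit, and such genes were taken by the size of their change. Obp8a, which encodes an odorant-binding protein, read -0.36, -0.70, 1.09, 0.12 and 1.40 at 7 days and 2.29, 2.99, 2.46, 3.08 and 2.95 at 35 days, with replicate 4 the highest of the midlife pools. The difference over all 10 arrays was 2.44 (SE 0.42, limma adjusted p = 0.1). Its relative Obp56d differed by 2.66 (SE 0.51, limma adjusted p = 0.11). mip130, a subunit of the dREAM complex that represses genes in differentiated cells, read -1.40, -2.42, -0.90, -1.14 and -2.25 at 7 days and 0.05, 0.30, -0.02, -0.53 and 0.41 at 35 days, a difference of 1.67 (SE 0.35, limma adjusted p = 0.11). Its 45-day-old arrays in row 2 ranged from -4.87 to 0.57.

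Su(P) read -0.20, -9.41, -9.38, -9.11 and -9.57 at 7 days and 1.51, 1.63, 2.65, 2.08 and 2.85 at 35 days, so that 4 young pools were near background and replicate 1 was far above them and below all midlife pools. All 45-day-old arrays were high, at 1.13 to 2.60 in row 1 and 1.12 to 2.74 in row 2. The difference of 9.67 (SE 1.69, limma adjusted p = 0.1) did not pass the threshold. laza, a lipid phosphate phosphatase known from photoreceptors, CG43293 and CG11275 were also higher, by 5.45, 5.05 and 2.78, each with an adjusted p of 0.11 over 10 arrays. laza was well above background on none of the young arrays and on all midlife arrays but replicate 4.

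Among the lower genes of that fit, tej, which encodes a Tudor-domain protein of the germline piRNA pathway, read -3.30, -6.76, -4.23, -3.85 and -2.65 at 7 days and -10.60, -10.94, -10.58, -1.58 and -10.32 at 35 days. AttC, the antibacterial peptide Attacin-C, read -1.68, -1.22, -3.32, -5.68 and -6.98 at 7 days and -10.60, -10.30, -9.12, -4.27 and -10.30 at 35 days. CG3788 read -3.87, -3.33, -4.30, -4.29 and -4.08 at 7 days and -10.49, -10.84, -10.48, -4.29 and -10.12 at 35 days. Midlife replicate 4 lay within the range of the young pools in AttC and CG3788 and above it in tej, and the other 4 midlife pools were near background. CG9864 and CG7079 had replicate 4 at -2.68 and -4.13, also within the range of the young pools. fs(1)M3, needed for the vitelline membrane of the egg, differed: replicate 2 was the midlife pool above the others at -6.02, and the difference over 10 arrays was -5.58 (SE 0.85, limma adjusted p = 0.06), short of the threshold.

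Before features were combined to genes, 44 of 45366 features were past the threshold (0.0970%), 10 higher and 34 lower. They carried 27 gene symbols, 14 of the 44 had no symbol, and 16 of the 27 genes did not pass as genes. The genes described here were picked out after their values were seen. Over all 45366 features the median change was -0.41, with 10860 lower and 1463 higher at an unadjusted p under 0.05 (limma). With median scaling it was -0.06, with 3163 lower and 4756 higher. The share of all features with a change below 0 was not computed. All 172 features of up, which encodes troponin T of muscle, were lower, with a median of -1.69 outside the 3 that passed, and the gene differed by -1.74 (SE 0.42, limma adjusted p = 0.11). Of these features 154 were well above background on no midlife array and 86 on no young array. Of the 72 features of Drip, an aquaporin water channel, 71 were lower, with a gene difference of -2.70 (SE 0.86, limma adjusted p = 0.11). All 15 features of bib (big brain), a channel of the same family, were lower, with a difference of -2.70 (SE 0.63, limma adjusted p = 0.11), and so were all 11 features of sand, a potassium channel with paired pore domains, with -3.67 (SE 0.80, limma adjusted p = 0.11). For sand 10 of the 11 features were well above background on no midlife array. The pools read -2.73, -2.31, -2.98, -4.14 and -4.23 for Drip at 7 days and -5.17, -8.75, -5.13, -3.89 and -6.95 at 35 days, where replicate 4 overlapped the young pools. For bib they read -3.99, -4.71, -3.62, -4.55 and -4.27 at 7 days and -5.14, -5.79, -7.10, -8.23 and -8.38 at 35 days, with no overlap and with replicates 4 and 5 lowest. Features of a gene are read from the same pools and are not replicates. Some also nearly repeat each other, as in Drip, where features changed by -1.79, -1.80, -1.82, -1.82 and -1.81. Whether such features share a sequence was not examined. The change also differed with level, from -1.79 in a Drip feature at 0.25 at 7 days to -4.10 in one at -3.75.

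In other genes a single feature stood apart. The scaffold gene Rack1 had 1 of 5 features that changed by -4.66, well above background on 5 young and 1 midlife arrays, while the other 4 changed by -0.05 to 0.55. The initiation factor eIF4B had 1 of 3 features that changed by -2.03, and the others changed by -0.18 and -0.36. Msp300, a nesprin of muscle, had 1 of 11 features that changed by -3.61, against a median of 0.27 for the others. The salt-inducible kinase gene Sik3 had 1 of 5 that changed by -2.85, against a median of -0.15. Dap160, the fly intersectin of synaptic endocytosis, had features of both kinds. One of its 63 features passed with a change of -5.92, and the others ranged from -5.34 to 0.36 with a median of -0.20. Which transcripts these features detect was not examined. With median scaling 184 features passed, 138 of them higher, and 11 of the 22 features of dpy (dumpy), a giant protein of the apical matrix, were among those. The gene read -6.87, -6.63, -4.41, -6.20 and -5.90 at 7 days and -6.61, -3.77, -4.67, -4.81 and -3.85 at 35 days and differed by 1.61 in that scaling (adjusted p = 0.26).

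**Figure D4:**
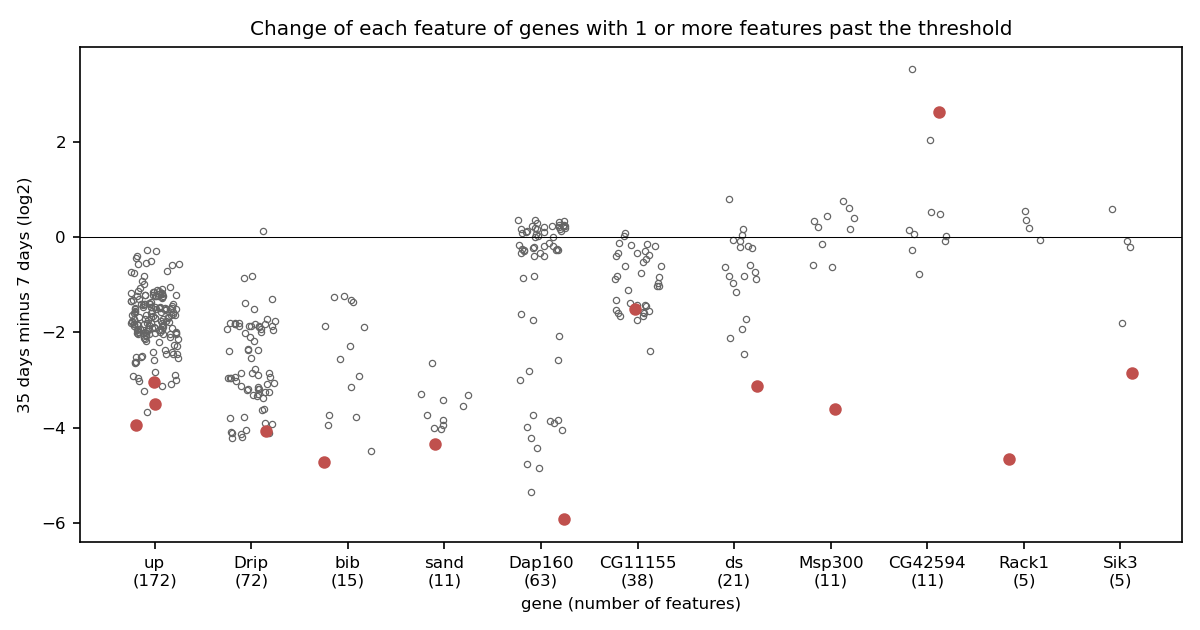
Change from 7 to 35 days (log2) of every feature of 11 genes with at least 1 feature past the threshold (filled points); the number of features is in parentheses. Features of up, bib and sand are all below 0, while in Rack1 and Msp300 a single feature lies far below the others and those of Dap160 spread from near 0 to -5.92.

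Functions were followed through lists of genes, each read against the share of all genes. An unadjusted p under 0.05 was found in 2.96% of all genes with a higher and 21.2% with a lower level at 35 days, and with median scaling in 10.1% and 6.46%. Among the brighter genes the shares were 5.40% and 5.83% with the 75th percentile and 19.0% and 1.59% with median scaling. Lists are given for their members among the brighter genes, a choice made after the values were seen, and no list as a whole was tested. The only list member that passed the threshold was Lsm10.

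Of 25 SNARE and active zone genes, 0 were higher and 6 lower at an unadjusted p under 0.05, with a median change of -0.36 against -0.02 for all brighter genes. Csp, the vesicle chaperone cysteine string protein, differed by -0.67 (unadjusted p = 0.005), brp, the active zone scaffold Bruchpilot, by -1.50 (unadjusted p = 0.0097), and the calcium sensor Syt1 by -0.46 (unadjusted p = 0.02). Under median scaling 1 gene of the list, brp, remained at an unadjusted p under 0.05, and the median was -0.01 against 0.33 for all brighter genes. Nicotinic acetylcholine receptor subunits, which receive the cholinergic input, had a median change of -0.38 over 8 genes, with nAChRbeta1 at -0.63 (unadjusted p = 0.0063), nAChRalpha7 at -0.43 (unadjusted p = 0.03) and nAChRbeta2 at -1.10 (unadjusted p = 0.06). The 20 brighter voltage-gated sodium, calcium and potassium channels had a median of -0.30, with 1 lower, the ERG-type potassium channel gene sei at -1.61 (unadjusted p = 0.0087). Among all brighter genes 5.83% were lower. With median scaling 0 of the 8 receptor subunits were lower or higher at an unadjusted p under 0.05 (limma), at a median of -0.03, and 2 of the 20 channels were higher and 1 lower, at a median of 0.05.

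The array was enriched for membrane channel and calcium-binding genes. Of 73 brighter membrane channel genes, 14 were lower and 0 higher at an unadjusted p under 0.05, with a median of -0.33. The chloride transporter gene ClC-c had the smallest p of them and changed by -1.57 (unadjusted p = 0.00087). Of 114 calcium-binding genes, 23 were lower and 4 higher, with a median of -0.31. CG31345, the Golgi mannosidase gene alpha-Man-Ib and Scp1, a sarcoplasmic calcium-binding protein, had the smallest p and changed by -1.19 (unadjusted p = 0.00041), -1.51 (unadjusted p = 0.00053) and -2.16 (unadjusted p = 0.001). With median scaling the medians of the channel and calcium-binding lists were 0.02 and 0.04, below the 0.33 of all brighter genes. The counts then changed to 4 lower and 3 higher channel genes and to 8 lower and 12 higher calcium-binding genes.

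Enzymes of the tricarboxylic acid cycle had a median change of -0.49 over 16 genes, with 5 lower and 0 higher at an unadjusted p under 0.05. The isocitrate dehydrogenase subunit Idh3g changed by -0.51 (unadjusted p = 0.017), the aconitase mAcon1 by -1.94 (unadjusted p = 0.019) and the citrate synthase kdn by -0.90 (unadjusted p = 0.022). The 68 respiratory chain subunits had a median of -0.19, with 6 lower and 0 higher, and mitochondrial ribosomal proteins one of -0.02 over 67 genes. Among all 6485 brighter genes, 378 (5.83%) were lower. Median scaling left 1 cycle enzyme, mAcon1, and 0 chain subunits lower at an unadjusted p under 0.05 (limma). Heat shock and co-chaperone genes had a median of -0.45 over 21 genes, or -0.10 with median scaling.

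The 13 brighter Sm and Lsm proteins had a median change of 0.42, with 2 higher and 0 lower at an unadjusted p under 0.05. The one that passed, Lsm10, belongs to histone processing and not to the spliceosome, and next in order were snRNP-U1-C at 0.80 (unadjusted p = 0.03) and LSm3 at 0.68 (unadjusted p = 0.065). With median scaling 7 of the 13 were higher at an unadjusted p under 0.05, at a median of 0.76. Autophagy genes had a median of 0.22 over 19 genes, with 3 higher and 1 lower, and with 7 higher and 0 lower under median scaling. Of the 3 with the smallest p, Atg7, which activates the ubiquitin-like Atg8, was lower at -0.85 (unadjusted p = 0.014), and the kinase partner Atg13 and the membrane protein Atg9 were higher at 0.95 (unadjusted p = 0.026) and 0.73 (unadjusted p = 0.039). The 8 subunits of the cytosolic chaperonin had a median of 0.20, the 32 proteasome subunits of 0.02 and the 80 cytosolic ribosomal proteins of 0.04, which with median scaling became 0.55, 0.37 and 0.39. Among proteasome subunits, the regulatory subunit Rpn3 was at 0.70 (unadjusted p = 0.0094) and the ATPase subunit Rpt1 at -1.69 (unadjusted p = 0.031).

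**Figure D5:**
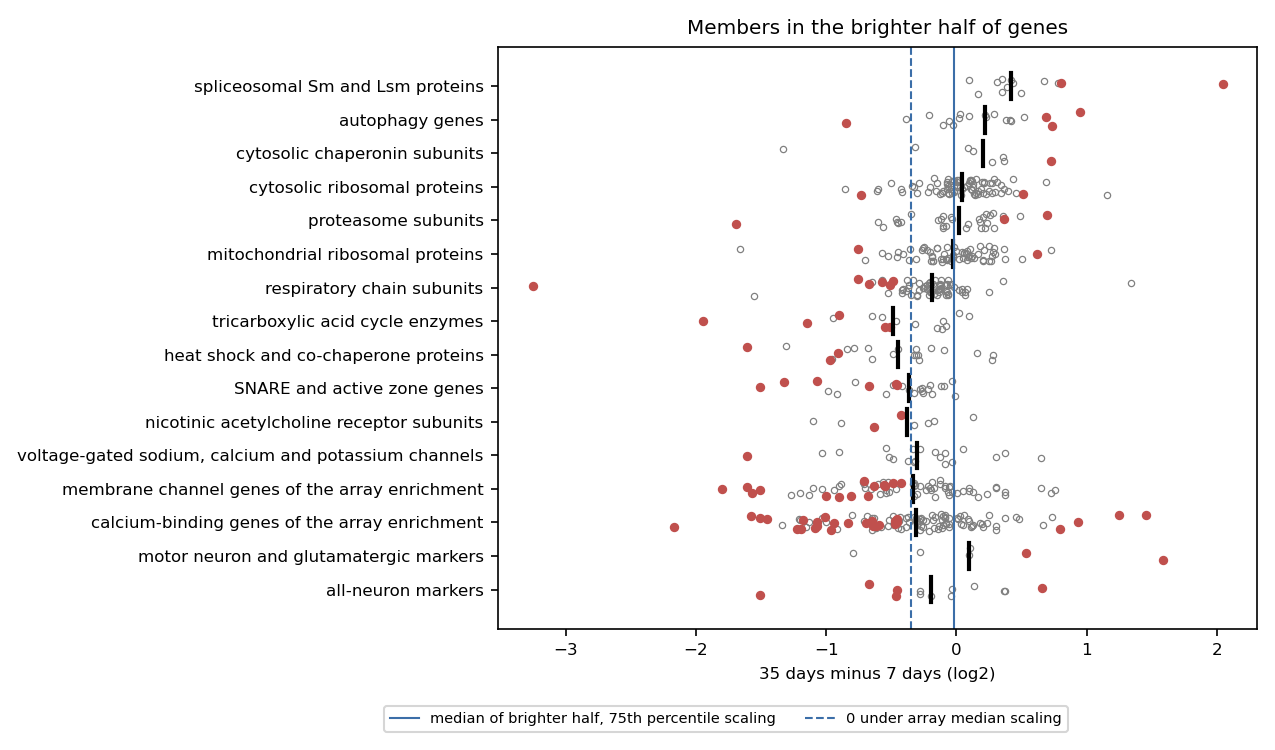
Change from 7 to 35 days (log2, 75th percentile scaling) of the members of 16 gene lists that are among the brighter genes. Filled points have an unadjusted p under 0.05, black bars are list medians, and vertical lines mark the median of the brighter genes (-0.02) and the change that reads 0 under median scaling. The medians of SNARE and active zone genes (-0.36) and tricarboxylic acid cycle enzymes (-0.49) lie below it and that of Sm and Lsm proteins (0.42) above it.

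Antimicrobial peptides had a median change of -1.13 over 33 genes, with 10 lower and 0 higher at an unadjusted p under 0.05, and of -0.78 with 7 lower under median scaling. The 13 brighter ones had a median of -0.94, with 3 lower and 0 higher. With median scaling their median was -0.59, with 0 lower and 0 higher. Of the 6486 dimmer genes as a whole, 2374 were lower at an unadjusted p under 0.05 (limma), and 735 with median scaling. The peptide gene BomS1 changed by -1.28 (unadjusted p = 0.013), while AttC, described above, and Drsl6, at -1.27 (unadjusted p = 0.0029), were dimmer genes. Hemocytes and the fat body are known to make such peptides. The 11 hemocyte markers had a median change of -1.27 and a summed level (2 to the power of each value, added up) of 0.59 to 1.55 at 7 days and 0.26 to 1.04 at 35 days, with 5 of 11 well above background on all 10 arrays and He on none. The 13 fat body markers, 7 of them above background on all arrays, summed to 11.7 to 32.0 and 15.0 to 34.0, and the part of either cell type in the peptide values was not tested. The 6 brighter genes of the activity-regulated list had a median change of -0.54, with 2 higher and 2 lower at an unadjusted p under 0.05 (limma). With median scaling the median was -0.19, with 2 higher and 0 lower. Arc1, whose protein forms capsid-like particles that carry RNA between cells, was at 2.24, 2.34, 2.59, 1.88 and 3.03 in young and 3.69, 3.32, 3.63, 3.80 and 3.52 in midlife pools, a difference of 1.18 (unadjusted p = 0.0007). The transcription factor genes CrebA and CrebB of that list were lower at -1.01 (unadjusted p = 0.0064) and -0.78 (unadjusted p = 0.016).

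The summed level of the motor and glutamatergic markers was 22.1 to 29.5 at 7 days and 21.4 to 32.6 at 35 days, and that of neurons in general 74.1 to 93.6 and 64.8 to 80.7. These ranges overlapped between ages. The homeodomain gene exex, the fly HB9, read -2.07, -3.02, -1.64, -1.29 and -1.84 in young and -0.66, -0.92, -0.37, -0.22 and 0.25 in midlife pools, a difference of 1.59 (unadjusted p = 0.0012), without overlap. zfh1, another transcription factor of motor neurons, differed by 0.53 (unadjusted p = 0.036), and tup (islet) was at -0.79 (unadjusted p = 0.064). Of the 13 markers of neurons in general, 4 were lower at an unadjusted p under 0.05, Csp, brp, Syt1 and Snap25, and 1 was higher, Rbp9 of the ELAV family at 0.66 (unadjusted p = 0.0081), with a median of -0.19. With median scaling 1 was lower and 4 were higher, at a median of 0.16. The 3 cholinergic markers summed to 25.2 to 33.5 at 7 days and 20.7 to 29.3 at 35 days. The 2 GABAergic markers summed to 28.1 to 41.2 and 21.1 to 43.2. Both lists overlapped the range of the motor and glutamatergic markers at each age. Glia and muscle markers summed to 24.6 to 43.0 and 5.66 to 24.5 at 7 days and to 22.9 to 36.0 and 11.49 to 24.5 at 35 days, so the ages overlapped in both. Of the 12 marker lists summed, photoreceptor markers were the one in which the ages did not overlap. They summed to 1.78 to 2.32 at 7 days and to 1.19 to 1.71 at 35 days. Of the 12 photoreceptor genes 1 was among the brighter genes. Their median change was -1.32, against -0.80 for all dimmer genes, and with median scaling these were -0.97 and -0.45. With quantile normalization the photoreceptor median was -0.50. The sums were not computed with median scaling or quantile normalization, so the lack of overlap holds for the main scaling only. Of the 12 photoreceptor genes 2 were well above background on all 10 arrays, and the part of such cells in other results was not tested.

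Of the genes the study names, Timp, the secreted inhibitor of matrix metalloproteinases, read 0.27, -0.40, 0.44, -0.09 and 0.80 at 7 days and 1.92, 1.14, 1.21, 0.84 and 2.01 at 35 days. The ages did not overlap, and the difference was 1.22 (SE 0.32, limma adjusted p = 0.11), or 1.57 with median scaling (adjusted p = 0.15), without passing the threshold. Mmp1 read -6.34, -5.27, -5.09, -5.34 and -5.72 in young and -4.77, -6.39, -5.71, -4.78 and -2.36 in midlife pools, a difference of 0.75 (SE 0.67, limma adjusted p = 0.55). The ages overlapped, and midlife replicate 5 was highest. Mmp2 differed by -0.03 (SE 0.49, limma adjusted p = 0.98). ChAT, the enzyme that makes acetylcholine, was at 2.67 ± 0.20 (SD, n = 5) and 2.80 ± 0.40 (SD, n = 5), and Ddc, which makes dopamine and serotonin, was at 0.84 ± 0.46 (SD, n = 5) and 0.19 ± 0.58 (SD, n = 5). VAChT was at -1.71 ± 0.91 (SD, n = 5) and -2.12 ± 1.34 (SD, n = 5), and DAT at -3.25 ± 2.94 (SD, n = 5) and -5.45 ± 1.56 (SD, n = 5), both with overlap of the ages.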

How the data were processed

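Female w1118 flies with D42-driven GFP gave 5 pools of sorted MNs at 7 days and 5 at 35 days, with 1 single-colour Agilent array per pool. The deposited scanner intensity of each spot was background-adjusted by the authors with Agilent Feature Extraction 11.5.1.1. The deposited log2 table had been scaled to the 75th percentile and centred per feature by the authors, and differed from the scanner values by a median of 0.0012 to 0.0044 on these arrays. Here the 75th percentile of an array was subtracted from its log2 intensity and features of a gene were averaged, leaving out control spots and outlier flags. Symbols from RefSeq were found for 34811 of 45366 features, or 12971 genes. The test of age was limma 3.58.1 (R 4.3.3), with Benjamini-Hochberg adjustment over all genes or all features, and single genes also with a two-sided exact permutation test. The code was tested on simulated arrays with the means and spreads of these genes, in which 200 genes were changed by a known amount. The threshold recovered 0% of those changed by 1 (2-fold), 52% by 2, 73% by 3 and 86% by 5. A gene short of the threshold is therefore not shown to be unchanged. Alternatives were median scaling, quantile normalization, normexp on the median signals because mean signals were not used here, filters on dim features, slide, row and replicate terms, and leaving out each array. The number of arrays limits the precision.

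The genes described were all genes past the threshold, up to 3 members with the smallest p in each list described, cell type markers and genes that the study names. To these were added the 10 in each direction with the smallest adjusted p without 35-day-old replicate 4. Genes with equal adjusted p in that fit were ordered by the size of their change. Genes outside this rule are marked in the text. The lists and genes were chosen with earlier results of these data known. Nothing in the labels says whether pools came from separate cohorts, so p-values measure the spread between pools.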

Additional observations from a re-analysis of the deposited data

Results flagged for a closer look

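Among 88 groups of 5 arrays examined, 10 held a single array far from the others. Chance flags about 1 in 20 groups, but the number cannot be set against it, since CG3788, tej and AttC were taken from the fit that leaves out the midlife replicate 4 in which they stand apart. In midlife replicate 4, CG3788 read -4.29, tej -1.58 and AttC -4.27, against at most -10.12, -10.32 and -9.12 in the other midlife pools. In other midlife pools, CG7203 read -5.22 in replicate 5, with the rest at -9.99 to -8.73, and fs(1)M3 read -6.02 in replicate 2, with the rest at -10.72 to -9.71.

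In the young pools, Su(P) read -0.20 in replicate 1 against -9.57 to -9.11 in the others, and CG5853 read -7.88 in replicate 1 against -7.18 to -6.90. Lsm10 was lowest in young replicate 2 at -0.77, with the others at -0.12 to 0.11, and HP4 was lowest in replicate 4 at 0.62, with the others at 0.98 to 1.04. DAT, the dopamine transporter gene, read -8.33 in young replicate 5 against -3.26 to -1.41.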

How the results depend on the processing

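Against 13 genes past the threshold, normexp background correction gave 6, a filter for features above background on every array of an age 23, array weights 711, and the 6485 brighter genes tested alone 2. Quantile normalization without 35-day-old replicate 4 gave 8. The last 2, like the fits that leave out arrays with median scaling, were chosen after seeing the data. All 3 ages with the slide row as a term gave 0 (654 at an unadjusted p under 0.05), and there CG5853 turned to 0.81 (adjusted p = 0.95). Same-numbered pools correlated at -0.06 to 0.17, so the numbers were not taken as pairs, and the replicate block gave 1 gene, 1 with median scaling, and 0 features (limma, 10114 at an unadjusted p under 0.05). Leaving out single arrays gave 5 to 1147 genes, 5 to 17 with median scaling, and 20 to 4974 features. For features these were 25, 194 and 138 when 7-day-old replicates 1, 3 and 5 were dropped, and 20, 29 and 4974 for 35-day-old replicates 2, 3 and 4. Against 44 features, median scaling gave 184, quantile normalization 92 and the filter on dim features 244. Of 367 comparisons of a gene with its value under an alternative, 221 stayed on their side of the threshold, 145 kept the direction but missed it and 1 reversed. Some of these alternatives nearly repeat the main fit. The causes were not tested. The size of the change is uncertain for genes below background on all arrays of an age, and bounds given above hold for the main processing only.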

Other observations

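Cytochrome P450 enzymes, which oxidize lipids and foreign compounds, had a median change of -0.57 over 82 genes and of 0.38 over the 20 brighter ones, where 5 were higher and 2 lower at an unadjusted p under 0.05. Cyp6w1 differed by 2.15 (limma unadjusted p = 0.00093). The 8 brighter odorant-binding proteins had a median of 1.35, with 2 higher and 0 lower at an unadjusted p under 0.05 (limma). All 47 had a median of -0.50, with 2 higher and 11 lower. Brighter genes were set by the mean over both ages, so a gene high at 35 days only can count among them. Among basement membrane genes SPARC, a collagen-binding matrix protein, differed by 0.93 (limma unadjusted p = 0.018) and Pxn, peroxidasin, by -1.21 (limma unadjusted p = 0.0024).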
